A study of Mus musculus with 2 samples.

Results

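The 1613 wide H3K9me2 peaks that were called in wild-type activated B cells and had no overlapping peak in the knockout cells are described here. They are 1613 of the 31622 WT peaks on chromosomes 1 to 19 and X, or 5.10% (95% exact interval 4.86 to 5.35%). A peak was taken when it was at least 500 bp longer than d, the fragment length that the peak caller estimated for its library, when its pileup was below 100, and when no KO peak shared a single base with it. Pileup is the mean number of tags, each extended to d, that cover a base of the peak. The members were therefore chosen by measured values, and their width, their pileup and their lack of a KO partner are descriptions of the choice and not results.

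Dimethylation of lysine 9 of histone H3 is a mark of repressed chromatin. It is laid down chiefly by the enzymes Ehmt1 and Ehmt2 and is removed by jumonji-domain demethylases, and it tends to cover long stretches of silent, gene-poor chromatin at the nuclear periphery. Jmjd1c encodes a member of the Kdm3 group of jumonji proteins, which holds H3K9 demethylases. The libraries were made by CUT&Tag, in which an antibody guides a transposase that cuts and tags the marked chromatin.

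There were 2 libraries, 1 from activated B cells of mice labelled jmjd1c B KO (KO) and 1 from activated B cells of WT mice, both on the C57BL/6 strain. How the allele was made, how the cells were activated, and the age and number of the mice are not given in the sources used here. The KO list rested on 34502392 tags and the WT list on 33474010 tags. The value of d was 189 bp in KO and 292 bp in WT, so the shortest wide peak was 689 bp long in KO and 792 bp in WT. With 1 library per genotype no test was possible, and no difference below is a shown loss or gain of the mark. Intervals are 95% intervals, exact for shares and counts and from order statistics for medians, and cover counting error only. Each list holds called peaks, so the KO coverage beneath a member is not known here. At Jmjd1c itself (chr10:67096351-67256326) neither library had a peak, so the lists do not check the knockout, and the nearest member lay 1577 kb away.

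The members that covered the start of a gene show most directly which sequence lay beneath a peak. Windows from 250 bases before to 50 bases after a gene start were taken from a RefSeq table (GRCm38.p6, the assembly behind mm10) that does not hold every start. Members met windows of 21 genes and covered the whole window at 12 of them. Shown here are 5 windows of protein-coding genes that lay wholly inside a member. They run 5′ to 3′ on the gene's own strand, with every CG in capitals. Tac1, which encodes the precursor of the neuropeptide substance P, has its window at chr6:7554811-7555110 on the plus strand. Dab1, which encodes an adaptor of the reelin pathway, has its window at chr4:104367288-104367587 on the plus strand. That window lies well inside the annotated gene body, chr4:103619500-104744844, and not at its outer start. Tc2n, which encodes a protein with C2 domains, has its window at chr12:101711524-101711823 on the minus strand. It too lies inside the annotated gene body, chr12:101645446-101718919, and not at its outer start. Nearly alike stretches open and close the Tc2n window, and whether reads were placed uniquely there is not known here. Gm3667, at chr14:6889882-6890181, and Slx, at chrX:26545516-26545815, are both on the minus strand and belong to multicopy families, so the placing of their reads is uncertain.
Tac1: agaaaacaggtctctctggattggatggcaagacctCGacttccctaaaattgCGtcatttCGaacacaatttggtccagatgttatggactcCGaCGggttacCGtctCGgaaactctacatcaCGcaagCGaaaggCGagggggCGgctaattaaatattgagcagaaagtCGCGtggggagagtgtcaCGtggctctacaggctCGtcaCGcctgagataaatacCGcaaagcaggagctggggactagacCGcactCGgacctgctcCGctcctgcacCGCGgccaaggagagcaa
Dab1: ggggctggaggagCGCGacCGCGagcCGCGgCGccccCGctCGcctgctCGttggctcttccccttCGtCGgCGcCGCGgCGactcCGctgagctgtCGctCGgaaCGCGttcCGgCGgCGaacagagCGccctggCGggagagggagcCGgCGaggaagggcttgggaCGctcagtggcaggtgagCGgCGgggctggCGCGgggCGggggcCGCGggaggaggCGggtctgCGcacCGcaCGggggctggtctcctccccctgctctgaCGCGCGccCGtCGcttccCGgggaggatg
Tc2n: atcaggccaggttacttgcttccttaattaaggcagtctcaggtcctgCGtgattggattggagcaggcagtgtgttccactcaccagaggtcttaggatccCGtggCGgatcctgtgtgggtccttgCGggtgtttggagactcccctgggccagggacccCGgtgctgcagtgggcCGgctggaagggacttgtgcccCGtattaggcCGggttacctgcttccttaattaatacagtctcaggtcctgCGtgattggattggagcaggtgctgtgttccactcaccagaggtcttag
Gm3667: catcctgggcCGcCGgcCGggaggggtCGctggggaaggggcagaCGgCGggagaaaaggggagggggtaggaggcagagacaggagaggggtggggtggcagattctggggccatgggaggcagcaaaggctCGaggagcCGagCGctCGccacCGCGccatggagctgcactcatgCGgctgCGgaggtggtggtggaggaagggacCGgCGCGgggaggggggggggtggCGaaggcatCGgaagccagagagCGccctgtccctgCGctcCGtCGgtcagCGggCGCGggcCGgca
Slx: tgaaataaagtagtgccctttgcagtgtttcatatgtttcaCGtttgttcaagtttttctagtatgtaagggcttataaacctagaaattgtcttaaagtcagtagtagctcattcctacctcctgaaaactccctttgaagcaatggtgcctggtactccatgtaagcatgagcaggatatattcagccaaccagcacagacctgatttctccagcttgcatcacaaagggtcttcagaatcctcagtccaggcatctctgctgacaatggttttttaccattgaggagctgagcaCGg
These starts differed widely in CG content. The window of Dab1 had 46 CG and 77.3% G+C, and that of Gm3667 had 27 CG and 73% G+C. Tac1 had 22 CG and 54% G+C, Tc2n had 9 CG and 56.7% G+C, and Slx had 2 CG and 42.7% G+C. Over all 21 genes the median was 7 CG and 53.3% G+C, against 7 CG and 53% G+C over all 32619 windows of the RefSeq table. Windows with 3 or fewer CG belonged to 9 of the 21 genes and made up 31.0% of all windows. The letters TATAAA, searched on both strands, were in the windows of 6 of the 21 genes and in 13.7% of all windows. Slx was 1 of those 6.

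The peaks over these starts differed in strength. Across all members the −log10 q had a lower quartile of 2.62 and an upper quartile of 3.43. The member at Tac1 (chr6:7554146-7555388) was 1243 bp long with a pileup of 30.5 and a −log10 q of 2.66, and a KO peak was called 0.988 kb away. The member at Dab1 (chr4:104367242-104368274) was 1033 bp long with a −log10 q of 3.21, and its nearest KO peak lay 126 kb away. The member at Tc2n (chr12:101711338-101712221) was 884 bp long with a −log10 q of 2.57, and its nearest KO peak lay 11.6 kb away. The members over Gm3667 and Slx had a −log10 q of 3.83 and 4.22, both above that upper quartile, and KO peaks lay 40.7 and 24.1 kb away.

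Wide peaks had a KO partner more often than narrow ones. The overlap rule fixes this in part, since a longer peak offers more bases to meet. Of the 5455 WT peaks past the width limit and below the pileup limit, 29.6% had no KO peak, against 58.9% of the 26033 narrower WT peaks and 53.6% of all WT peaks. The mirror count was close: 1495 of 5362 wide KO peaks, or 27.9%, had no WT peak. The members thus outnumbered wide KO-only peaks by a factor of 1.08 (1.005 to 1.16). That factor depends on how width is measured. With the same total width of 792 bp asked of both lists, 748 KO-only peaks were left, and the factor was 2.16 (1.98 to 2.35). In both lists the share without a partner fell with width. It was 69.6% in WT and 70.5% in KO for peaks less than 100 bp longer than d, and 14.6% in WT and 11.3% in KO for peaks at least 1000 bp longer. In 1 step of width alone the intervals of the lists did not meet. From 600 to 700 bp above d the share was 35.1% in WT (32.4 to 37.95%) and 29.3% in KO (26.7 to 32.1%). In the steps beside it the lists were close, with 38.5% in WT and 39.0% in KO from 500 to 600 bp. From 700 to 800 bp the shares were 27.2% and 25.9%. Since d differs, a step does not hold the same total widths in both lists.

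**Figure D1:**
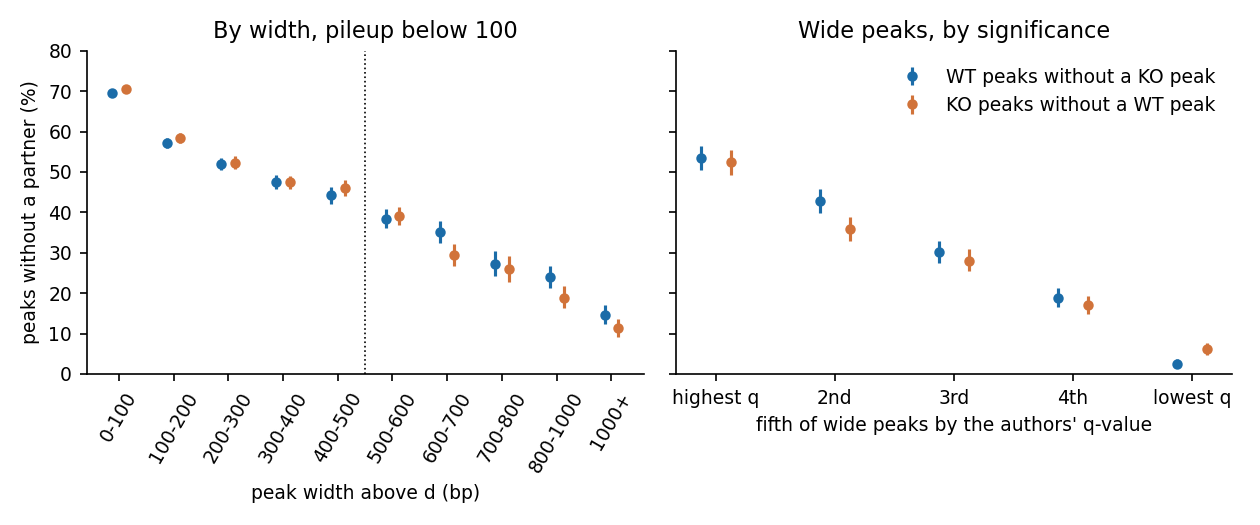
Share of WT peaks without a KO peak (blue) and of KO peaks without a WT peak (orange), in percent, by peak width above the fragment length d (left, pileup below 100, with the 500 bp limit dotted) and, for wide peaks, by the authors' q-value in 5 groups of equal size within each list (right). Bars are 95% exact intervals for counting error. Both lists fall with width and with significance. At 600 to 700 bp WT lies above KO (35.1% and 29.3%), but the intervals meet at 500 to 600 and at 700 to 800 bp. WT also lies above KO in the second group by q (42.8% and 35.8%). It lies below KO in the group of lowest q (2.57% and 6.15%). The q limits of the groups differ between the lists.

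The members came mostly from the weak end of the wide WT peaks. When the wide WT peaks were split by the authors' q-value into 5 groups of equal size, 53.5% of the group with the highest q had no KO peak, against 2.57% of the group with the lowest q. Among wide KO peaks the share without a WT peak was 52.4% in the group with the highest q and 6.15% in that with the lowest. In the group of lowest q the intervals of WT (1.71 to 3.69%) and KO (4.79 to 7.76%) do not meet. That group began at a −log10 q of 4.85 in WT and 4.25 in KO, so the lists are not compared at equal q. The median −log10 q was 2.95 in members (2.90 to 2.98) and 3.82 in the 3842 wide WT peaks that a KO peak overlapped (3.76 to 3.87). A q of 1e-05 or lower was reached by 19 members (1.18%), against 977 of the overlapped wide peaks (25.4%). Fold enrichment, which the authors' caller gave as pileup over a local background, differed less, with medians of 2.61 in members and 2.67 in overlapped wide peaks.

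Members were between 792 and 1998 bp long, with a median of 927 bp, and together they covered 1.60 Mb. The median width above d was 635 bp, 582 members were at least 700 bp longer than d, and 132 were at least 1000 bp longer. Pileup lay between 16 and 67.7 with a median of 24.1. No wide WT peak without a KO partner had a pileup of 100 or more, so the pileup limit removed none, and all 41 wide WT peaks above it were overlapped. The members of highest pileup were chr18:82167459-82168357 at 67.7 and peaks in the predicted genes Gm6460 at 61.0 and Gm5861 at 57.7, both of a multicopy family on chromosome 5.

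The width limit fell in a crowded part of the distribution. There were 66 members within 10 bp inside it and 90 WT-only peaks within 10 bp outside it. Just inside, chr14:85109161-85109952, chrX:122141654-122142445, chr13:61076125-61076916 and chr1:41783479-41784270 were each 792 bp long and chr9:68130365-68131157 was 793 bp long, with a −log10 q between 2.30 and 3.601. Just outside, 5 peaks of 791 bp had a −log10 q between 2.73 and 4.46, the highest at chr13:88937421-88938211.

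Of the 10 widest members 2 overlapped a protein-coding gene, and by midpoint 29.6% of all members and 29.03% of the widest 403 lay in one. The widest of all, chr12:57501274-57503271, was 1998 bp long with a pileup of 26.8, a fold enrichment of 2.57 and a −log10 q of 3.21, and lay 37.4 kb from Foxa1, which encodes a pioneer transcription factor of endoderm. A KO peak was called 28.5 kb from it. The next were chr10:79135627-79137586 with 1960 bp, 11.2 kb from the vomeronasal receptor gene Vmn2r80, and chr14:94286783-94288725 with 1943 bp, 394 kb from the protocadherin gene Pcdh9. Members of 1903 and 1898 bp lay at chr3:15341795-15343697, 9.49 kb from Gm9733, and at chr5:11311189-11313086, 27.3 kb from Speer1. The remaining ones outside protein-coding genes were chr1:107187622-107189406 (1785 bp, 26.5 kb from Serpinb3b), chr3:92893618-92895400 (1783 bp) and chr8:4838951-4840713 (1763 bp). Inside genes, chr6:101192775-101194534 (1760 bp) was in Pdzrn3, which encodes a ubiquitin ligase with a PDZ domain, and chr15:39591336-39593083 (1748 bp) was in Rims2, which encodes a presynaptic active zone protein. All 10 had a −log10 q between 2.52 and 3.58.

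By the position of their midpoints, 990 members (61.4%, 59.0 to 63.8%) lay outside annotated genes, 477 (29.6%, 27.4 to 31.9%) inside protein-coding genes and 146 (9.05%, 7.70 to 10.6%) in other genes only. The last class was chiefly long non-coding RNA genes, whose bodies 115 members met. The genome between the outermost genes and peaks is 51.8% outside genes, 39.99% in protein-coding genes and 8.24% in other genes, so members lay outside genes more often than its span. The other classes of peak did so too. The share outside genes was 63.7% (62.1 to 65.2%) for overlapped wide WT peaks, 61.4% for narrower WT-only peaks, 62.6% for wide KO-only peaks and 62.1% for all WT peaks. Members had a median distance of 212 kb (194 to 230 kb) to the nearest protein-coding gene start, taken over 1564 members, against 206 kb for overlapped wide peaks and 197 kb for wide KO-only peaks. Gene starts on chromosome 18 were not used here.

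Members were found at gene ends less often than the wide peaks with a KO partner. Within 1 kb of either end of a protein-coding gene there were 40 members (2.48%, 1.78 to 3.36%), against 184 overlapped wide WT peaks (4.79%, 4.14 to 5.51%), and these intervals do not meet. The narrower WT-only peaks were at 1.88% (1.67 to 2.11%) and the wide KO-only peaks at 2.61% (1.86 to 3.55%), both near the members. Such windows make up 3.03% of the bases of the span. A peak counts once any of its bases overlaps a window, so that share is not a direct baseline. The overlapped wide peaks were also longer, with a median of 1020 bp against 927 bp in members, and had the lower q-values, as given above. The part of length and of q in this difference was not tested.

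**Figure D2:**
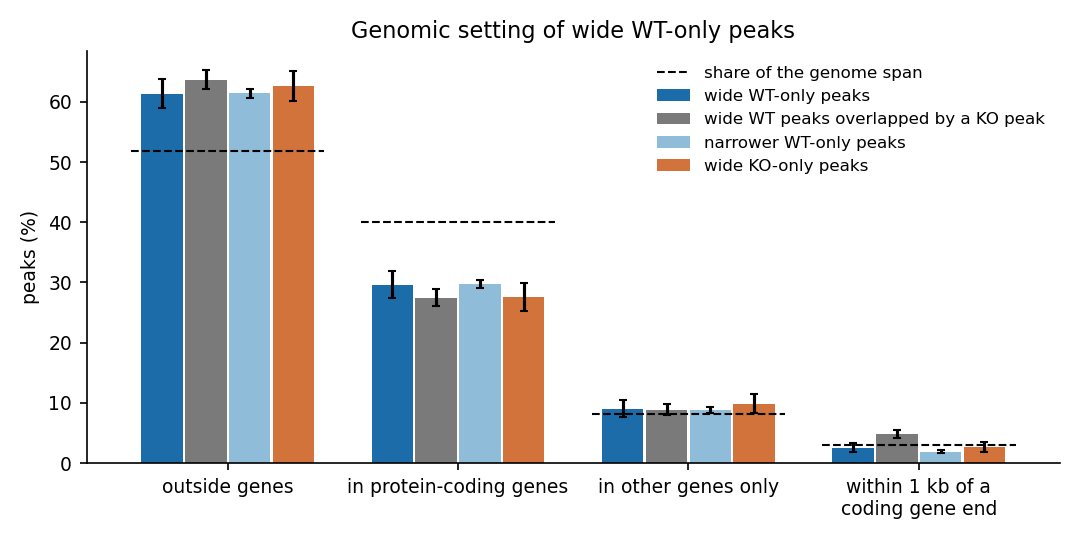
Share of peaks, in percent, whose midpoint lay outside genes, inside protein-coding genes or in other genes only, and share that overlapped the 1 kb on either side of a protein-coding gene end, for the 1613 wide WT-only peaks and 3 other peak classes. Bars carry 95% exact intervals and dashed lines give the share of the genome span in bases. At gene ends peaks count by any overlap, so the dashed line there is not a direct baseline. The classes sit together except at gene ends, where overlapped wide WT peaks reach 4.79%.

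The 40 members at gene ends touched 40 genes, of which 19 belong to multicopy families or have only predicted names and are uncertain. Of 45 pairs of a member and a gene end, 23 were starts, 10 were the opposite ends, and for 12 the strand was not used here. The widest was chr3:18242866-18244396 (1531 bp, −log10 q 3.63), over an end of Cyp7b1, which encodes an oxysterol hydroxylase, with a KO peak 1.16 kb away. Next came chr14:39471134-39472546 (1413 bp) near the start of Nrg3, which encodes a neuregulin growth factor, and chr11:37236209-37237602 (1394 bp) across the start of the annotated body of Tenm2, which encodes a teneurin adhesion protein. Tac1, described above, was the fifth. Among the other widest were, outside multicopy families, Kcnv1, which encodes a potassium channel subunit, Trpc6, which encodes a cation channel, Pappa, which encodes a metalloproteinase, Ttc6 and Plxdc2. Their members were 1054, 1035, 1018, 1012 and 1004 bp long, with a −log10 q of 2.15, 2.65, 2.38, 3.59 and 3.03 in that order. The family genes Gm7356, Spin2f, Gm17175, Gm3667, Serpinb9c and Slx made up the rest of the 15 widest.

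KO peaks were close to most members. The distance from a member to the nearest KO peak was between 3 bp and 813 kb, with a median of 10.003 kb (9.20 to 10.8 kb). A KO peak lay within 1 kb of 91 members (5.64%), within 10 kb of 806 (49.97%), within 50 kb of 1472 (91.3%) and within 100 kb of 1560 (96.7%). The same distance had a median of 10.6 kb for narrower WT-only peaks, and wide KO-only peaks had their nearest WT peak at a median of 10.2 kb. The nearest other WT peak lay at a median of 10.9 kb from a member, and the KO peak was the nearer of both in 823 members (51.0%, 48.6 to 53.5%). The distance hardly moved with width: in 4 groups of equal size by width the medians were 9.50, 9.38, 11.5 and 9.60 kb, narrowest group first.

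A few members missed a KO peak by less than the difference in d between the libraries, which is 103 bp. There were 19 of these (1.18%). The 5 nearest were chr14:17078225-17079492 in Rarb, which encodes a retinoic acid receptor, at 3 bp; chr3:141925915-141926767 in Bmpr1b, which encodes a bone morphogenetic protein receptor, at 8 bp; chr6:26384124-26385005 at 15 bp; chr1:62344769-62345751 in Pard3b, which encodes a cell polarity protein, at 16 bp; and chr8:27316303-27317230 at 20 bp. Their pileups lay between 19.01 and 41.9 and their −log10 q between 2.53 and 3.22. For these regions the lack of overlap rests on a few bases.

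At the other end, the member farthest from a KO peak was chr8:34321277-34322247, 971 bp long with a −log10 q of 2.93, at 813 kb. It overlapped the non-coding gene Gm8254, and another WT peak was only 19.4 kb away. The second, chr4:113445971-113447014, lay 671 kb from a KO peak and 30.9 kb from Skint5. The third was the peak at Tenm2, at 631 kb, with a pileup of 25.3 and a −log10 q of 3.80. The fourth, chr1:21302832-21304315, lay at 558 kb and 37.3 kb from Gsta3, which encodes a glutathione transferase. The fifth, chrX:75341761-75343485 in F8, the gene of coagulation factor VIII, was 1725 bp long and stood 356 kb from the nearest peak of either library. The other 4 had a −log10 q between 2.70 and 3.04. The 5 thus stood in stretches where WT peaks were sparse too: only the first had another WT peak within 50 kb, and none had a KO peak there.

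Around members the KO and WT lists were alike. Within 50 kb a member had on average 3.90 KO peaks and 3.84 other WT peaks, with a median of 3 for each. There were 141 members (8.74%) with no KO peak in that range, 154 (9.55%) with no other WT peak and 63 with neither. More KO than other WT peaks were counted around 634 members, fewer around 573 and as many around 406. The other classes without a partner had like surroundings. Within 50 kb, narrower WT-only peaks had a mean of 3.63 KO and 3.53 other WT peaks. Wide KO-only peaks had 3.76 other KO and 3.83 WT peaks. Overlapped wide WT peaks had more, 6.09 KO peaks, their partners included, and 4.95 other WT peaks. Between 10 and 50 kb from a member's midpoint both lists ran at 3.04 to 3.46 times their genome-wide average. That ratio was not worked out for the other classes. Closer than 2 kb the KO list ran at 1.54 times its average and the other WT peaks at 0.428 times theirs, which the rule and the width of the peaks themselves fix in part.

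**Figure D3:**
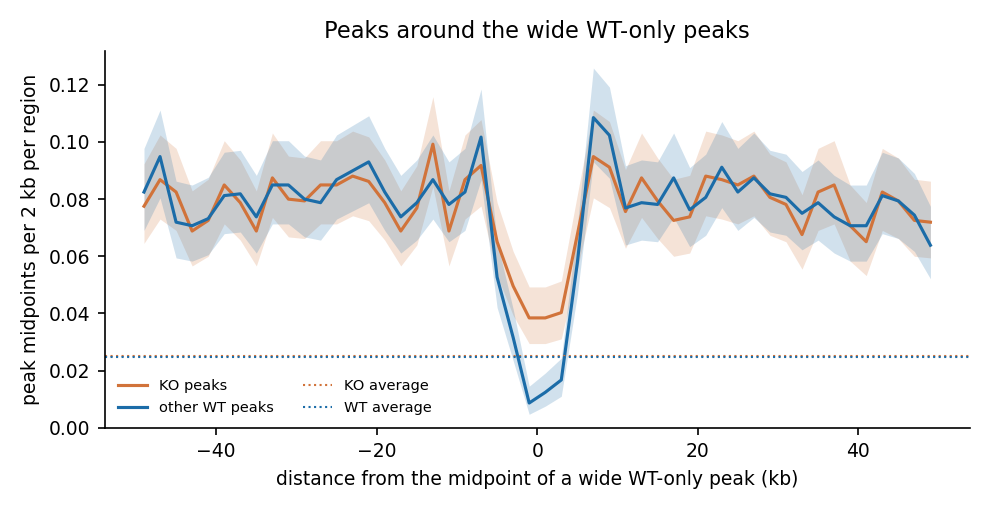
Number of KO peak midpoints (orange) and other WT peak midpoints (blue) per 2 kb per region, by distance in kb from the midpoint of the 1613 wide WT-only peaks, with 95% exact Poisson bands and the average over all chromosomes dotted. Beyond about 10 kb the KO and WT lines run together at about 3 times the averages, and both dip at the centre.

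Most members had no other member within 50 kb, and a comparison with even spacing was not tested. Another member lay within 50 kb of 309 (19.2%, 17.3 to 21.2%), and the median gap to the nearest other member was 219 kb. Linked at 50 kb, the 1613 members formed 1450 runs, of which 1304 were single members, 132 were pairs and 14 held 3 or more. Wide KO-only peaks had a like pattern, with 14.6% (12.9 to 16.5%) within 50 kb of another, a share below that of the members. Overlapped wide WT peaks, of which there were 3842, had another of their kind within 50 kb in 48.1% of cases.

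The largest run held 5 members over 124 kb at chr14:106036705-106160267, where Trim52, which encodes a tripartite motif protein, is the gene overlapped. The 5 were 846 to 1047 bp long with a −log10 q of 2.71, 2.37, 3.47, 6.13 and 3.02 along the chromosome. The stretch also held 8 KO peaks, 1 of them a wide KO-only peak, and 9 other WT peaks. The second run had 4 members over 58.5 kb at chr6:59326059-59384550, across Gprin3, with 5 KO and 3 other WT peaks between them. Its members had pileups of 41.4, 35.8, 50.8 and 41.3, all above the median of 24.1.

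The most compact run had 3 members in 12.05 kb at chr9:85087936-85099984, 220 kb from the nearest protein-coding gene, Tent5a, with no KO peak and no other WT peak among them. These members were 1094, 1289 and 892 bp long, with a −log10 q of 2.28, 2.69 and 3.10. The last of them was 0.475 kb from a KO peak outside the run. The 2 other runs named by the rule held 3 members each, at chrX:145803861-145869466 (1381, 1376 and 1492 bp long, 298 kb from Amot) and at chr18:79638629-79688928.

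Seen from the KO list, the members fell into 1532 stretches between neighbouring KO peaks, of a median 47.2 kb, and 77 of these held 2 or more members. The longest stretch with 3 members ran over 9.09 Mb of chromosome 11 from 99868668 to 108959579. It covers 207 protein-coding genes and held 2 other WT peaks besides its members. A stretch of 524 kb at chr2:105511874-106035711 held 3 members and 1 other WT peak. Its members lay together at its lower end, in a run of 84.0 kb at chr2:105517080-105601034. That run was 67.9 kb from Pax6, which encodes a transcription factor of eye and brain development. Of the 1532 stretches, 747 held no WT peak other than members.

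By chromosome, members were most dense on chromosome 10, with 0.871 per Mb (0.716 to 1.05), and least on chromosome 19, with 0.275 per Mb (0.157 to 0.446). The average was 0.627 per Mb. Wide KO-only peaks were also denser on chromosome 10 (0.714 per Mb) than on chromosome 19 (0.326 per Mb), with an average of 0.582 per Mb. Members made up 5.73% of the WT peaks on chromosome 10 and 4.75% on chromosome 19. The intervals of both shares include the 5.10% found over all chromosomes, so the density of members there followed that of the WT list. Chromosome 1 had the most members (142) and chromosome 3 had 134. On the X chromosome there were 127 members and 82 wide KO-only peaks, a ratio of 1.55 (1.16 to 2.07), while the ratio of all WT to all KO peaks there was 1.04. Chromosome 13 had 102 members and 71 wide KO-only peaks, a ratio of 1.44 (1.05 to 1.97). Chromosome 9 had 94 members and 67 wide KO-only peaks, a ratio of 1.40 (1.01 to 1.95). The other 17 chromosomes had ratios between 0.746 and 1.22 with intervals that include 1. Over all chromosomes the ratio was 1.08. The intervals of chromosomes 9 and 13 include that value, and that of X does not. None of these intervals was adjusted for the number of chromosomes looked at. Chromosome 9 also had the highest share of its WT peaks among the members, 6.45%, ahead of X with 6.06%.

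**Figure D4:**
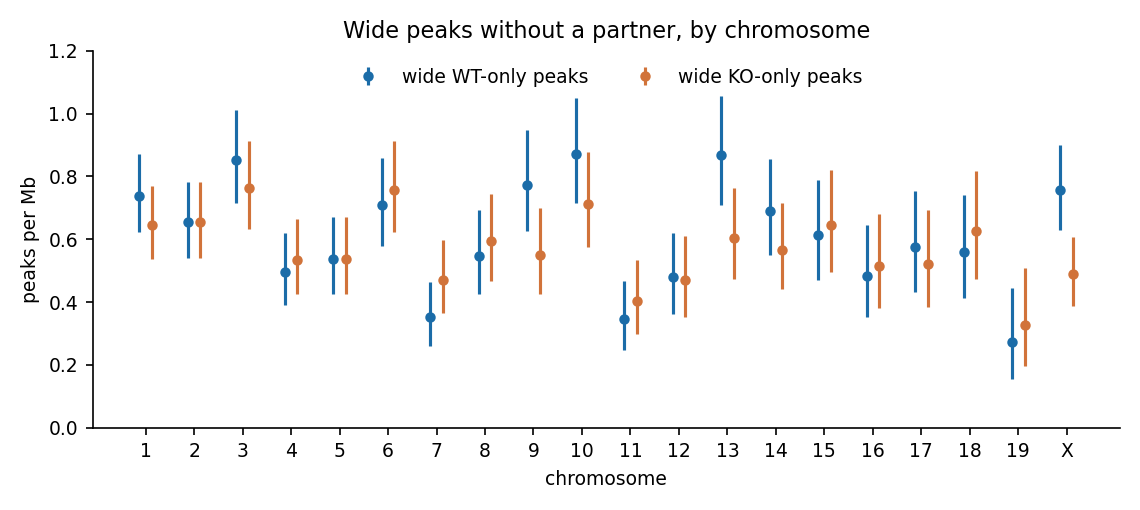
Wide WT-only peaks (blue) and wide KO-only peaks (orange) per Mb on each chromosome, with 95% exact Poisson intervals. The X chromosome has 0.757 wide WT-only and 0.489 wide KO-only peaks per Mb, the widest gap in ratio. Chromosomes 9 and 13 show the same order, but the intervals of their ratios include the 1.08 found over all chromosomes.

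In windows of 1 Mb, 929 of 2641 held a member and the most in one window was 7, at chr1:141000001-142000000 and chr5:10000001-11000000, both without a protein-coding gene. The window on chromosome 1 held 61 KO and 73 WT peaks and that on chromosome 5 held 65 KO and 72 WT peaks. Members per window numbered 0.730 with no protein-coding gene and 0.939 with 1 to 4, then 0.498 with 5 to 14, 0.167 with 15 to 29 and 0.244 with 30 or more. These counts did not fall steadily with gene number, and they followed the WT list itself. Members made up 5.38%, 5.01%, 5.22%, 4.58% and 5.17% of the WT peaks of these classes. Wide KO-only peaks were present in 537 of the 929 windows.

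Members overlapped 349 of 21517 protein-coding genes (1.62%), through 482 members. The wide KO-only peaks also overlapped 349 genes (1.62%), and 121 genes were in both sets, which is 34.7% of each. The genes hit were long, with a median of 294 kb (254 to 340 kb) against 17.4 kb for all protein-coding genes. The share hit was 0.156% for genes under 20 kb, 0.625% from 20 to 100 kb, 5.94% from 100 to 300 kb, 25.5% from 300 to 600 kb and 46.1% from 600 kb. Wide KO-only peaks gave 0.164%, 0.745%, 5.30%, 25.5% and 47.4% in the same classes. There were 90 genes with 2 or more members and 31 with 3 or more, while 74 genes had 2 or more and 15 genes 3 or more wide KO-only peaks. The 31 genes carried 108 members and 36 wide KO-only peaks, but they were picked for their members. They held 1015 KO and 1092 WT peaks in all. Gene by gene, KO peaks were fewer than WT peaks in 21 of the 31, more in 8 and as many in 2. These WT totals, and those of single genes below, include the members that chose the genes.

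Macrod2, which encodes an ADP-ribose hydrolase, had the most, 6 members over 1998 kb of chromosome 2. They were 946, 866, 852, 851, 838 and 798 bp long with pileups of 34.9, 39.5, 26.9, 22.7, 28.5 and 25.7. The first lay across the gene start, and KO peaks stood between 0.166 and 44.0 kb away. The whole gene had 47 KO and 56 WT peaks, among them 2 wide KO-only peaks. Grm8, a metabotropic glutamate receptor gene, had 5 members of 817 to 1385 bp, with 51 KO and 56 WT peaks in all and 3 wide KO-only peaks. Cntnap2, which encodes an axonal adhesion protein, had 5 members of 833 to 1294 bp, with 69 KO and 90 WT peaks in all and 3 wide KO-only peaks. Lrp1b, a lipoprotein receptor family gene, had 5 members of 811 to 1000 bp with pileups of 17.1, 18.8, 19.9, 17.5 and 19.3, all below the median. It had no wide KO-only peak, but its totals were near each other, at 35 KO and 37 WT peaks.

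There were 6 other genes that had 4 members each. Pdzrn3 had them within a gene of 228 kb, at lengths of 835, 1760, 814 and 880 bp and a −log10 q of 3.02, 3.42, 2.88 and 2.38. Its totals were 6 KO peaks and 15 WT peaks, members included, with no wide KO-only peak. Rarb had members of 1289, 1228, 1599 and 1268 bp, all above the median length, and totals of 33 KO and 36 WT peaks. Mecom, which encodes a zinc finger regulator of blood stem cells, had members of 1573, 855, 1069 and 953 bp and totals of 28 KO and 29 WT peaks. Abca13, an ABC transporter gene, had 23 KO and 27 WT peaks. Sugct, the gene of a glutarate CoA transferase, had 48 KO and 48 WT peaks and no wide KO-only peak. Csmd3, which encodes a large protein with CUB and sushi domains, had 68 KO and 75 WT peaks.

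Genes with 3 members came next, and 14 of them are given here. Gpc5 (a glypican), Pcdh7 (a protocadherin), Fat3 (an atypical cadherin), Grm5 (a metabotropic glutamate receptor), Bmpr1b, Dlg2 (a synaptic scaffold), Npas3 (a transcription factor) and Lrriq1 had 1 or 2 wide KO-only peaks besides. Slc24a3 (a sodium, potassium and calcium exchanger), Myo3a (an unconventional myosin), Grin3a (an NMDA receptor subunit), Fer (a tyrosine kinase), Bnc2 (a zinc finger protein) and Cpa6 (a carboxypeptidase) had none. Fer had 3 KO and 6 WT peaks in all, so its members were 50% of its WT peaks. Myo3a had 12 KO and 17 WT peaks, Grin3a had 9 KO and 11 WT peaks, and Slc24a3 had 25 KO and 27 WT peaks. More KO than WT peaks were called in Bnc2 (23 KO and 20 WT), Fat3 (30 and 28), Grm5 (28 and 27) and Bmpr1b (23 and 20). Gpc5, Pcdh7, Dlg2, Npas3, Lrriq1 and Cpa6 had more WT than KO peaks.

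**Figure D5:**
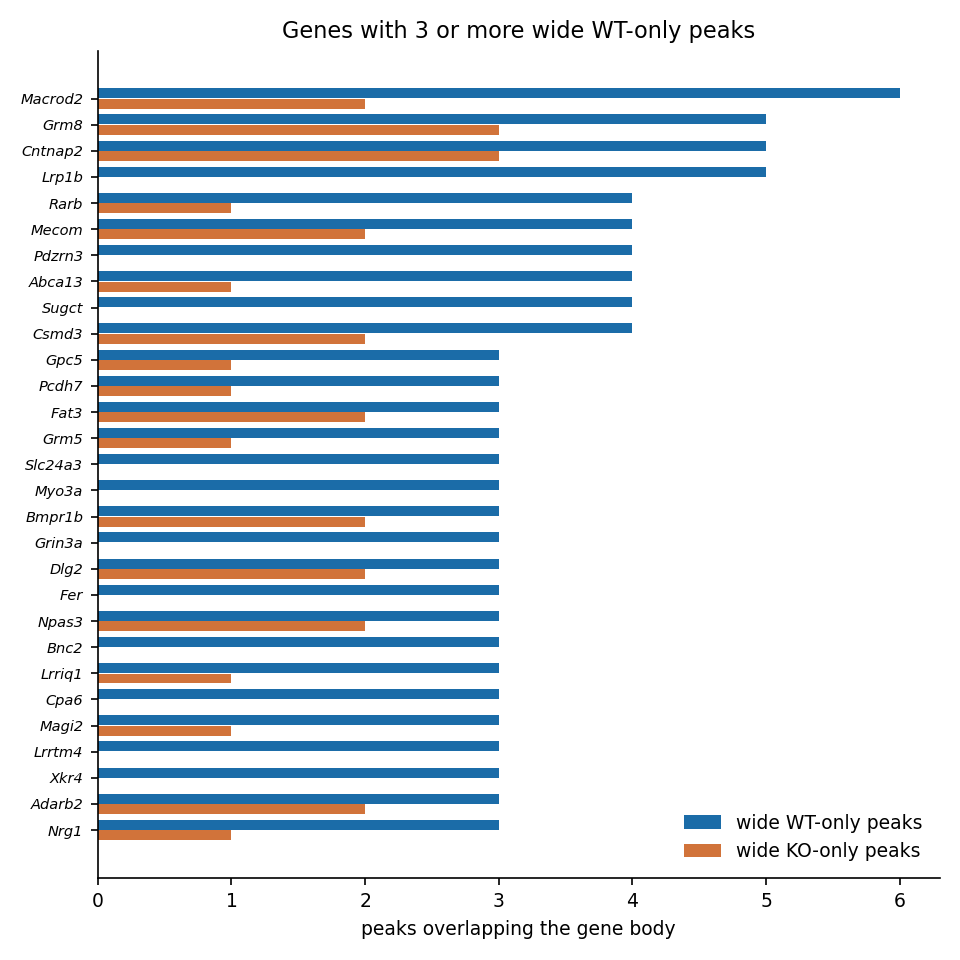
Number of wide WT-only peaks (blue) and wide KO-only peaks (orange) that overlap the body of 29 genes with 3 or more wide WT-only peaks. Macrod2 has 6 wide WT-only and 2 wide KO-only peaks and Lrp1b has 5 wide WT-only and no wide KO-only peaks; the genes were picked for the blue bars.

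No member overlapped a gene of B cell identity (20 genes), B cell activation (20), the germinal centre and plasma cell programme (20) or the H3K9 methylation enzymes and readers (22), and no wide KO-only peak did. The background share is 1.62% for either, and these genes are short, with list medians between 16.2 and 38.4 kb. Lists of genes that mark other cell types were also at 0, with 17 T cell and innate lymphoid genes, 17 myeloid genes and 20 housekeeping genes. The lists therefore do not speak to the purity of the cells, since few peaks of either library lay over them: 23 KO and 23 WT peaks lay over the T cell list, 1 KO and 1 WT peak over the myeloid list, and none of either over the B cell lists.

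The list of synaptic and neuronal adhesion genes, whose genes have a median length of 1138 kb, was hit in 14 of 30 genes (46.7%) by 31 members. That is near the 46.1% of all genes of 600 kb or more, and 17 of the 30 were hit by wide KO-only peaks. Over these genes there were 709 KO and 694 WT peaks. Cntnap2, Lrp1b, Csmd3 and Dlg2 are described above. Magi2, which encodes a synaptic scaffold, had 3 members and 1 wide KO-only peak. Cntnap5b, Csmd1, Cntn5, Dcc, Robo2, Dpp6, Cadm2 and Kcnip4 had 1 member each. Of those, Dpp6 had 7 KO and 14 WT peaks in all, and Kcnip4 had 23 KO and 16 WT peaks. Of 23 cadherin and protocadherin genes 4 were hit: Pcdh7 with 3 members, Pcdh9 with 2, and Cdh12 and Pcdh15 with 1. Wide KO-only peaks hit 5 of them. The share with a member was 17.4%, against 1.62% of all protein-coding genes and 5.94% of genes from 100 to 300 kb, the class that holds the list's median length of 197 kb. The 4 genes hit are longer than that class, from 417 kb for Pcdh7 to 1554 kb for Pcdh15. Of all genes, 25.5% were hit from 300 to 600 kb and 46.1% from 600 kb. The part of gene length in the 17.4% was not tested.

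The families taken by symbol are read against the 1.62% of all protein-coding genes hit by members and, as it happens, by wide KO-only peaks. Many of their genes share sequence, so single genes are uncertain. The 1.62% is not matched for gene length, and the potassium channel genes hit were 196 to 1136 kb long. Below that share were the olfactory receptors (0.271%), the vomeronasal receptors (0.571%), the Zfp genes (1.51%) and the serpins (1.59%), and above it the solute carriers (2.57%), the cytochrome P450 genes (4.04%) and the potassium channel genes (7.45%). Of 1109 olfactory receptor genes 3 were hit, Olfr149, Olfr441 and Olfr532, against 8 by wide KO-only peaks. Of 350 vomeronasal receptor genes 2 were hit, Vmn2r9 and Vmn2r110, against 3 by wide KO-only peaks. Of 99 cytochrome P450 genes 4 were hit, Cyp2c40, Cyp2c55, Cyp2j11 and Cyp7b1, against 2 by wide KO-only peaks, and over the family there were 34 KO and 50 WT peaks in all. Such totals went both ways in the other families hit. They were 146 KO and 151 WT peaks for olfactory receptors, 63 and 54 for vomeronasal receptors, and 56 and 70 for Zfp genes. Serpins had 15 KO and 18 WT peaks, potassium channel genes 192 and 173, and solute carriers 250 and 246. Of 397 Zfp genes 6 were hit (Zfp521, Zfp536, Zfp558, Zfp618, Zfp711 and Zfp804a), against 5 by wide KO-only peaks. Of 63 serpins 1 was hit (Serpinb9c), against 0 by wide KO-only peaks. Of 94 potassium channel genes 7 were hit (Kcnab1 and Kcnma1 by 2 members each, Kcnb2, Kcnc2, Kcnh5, Kcnh7 and Kcnip4 by 1), against 12 by wide KO-only peaks. Of 389 solute carrier genes 10 were hit, Slc24a3 by 3 members and Slc2a13, Slc4a4, Slc4a10, Slc8a1, Slc9a9, Slc25a21, Slc35f1, Slco3a1 and Slco4c1 by 1 each, against 8 by wide KO-only peaks. The 55 clustered protocadherin genes, whose annotated bodies overlap each other, had no member, while 2 wide KO-only peaks met 12 of them. None of 60 lectin and killer receptor genes and none of 43 glucuronosyltransferase and sulfotransferase genes had a member, against 0 and 1 with a wide KO-only peak.

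In 37 of the 349 genes with a member (10.6%, 7.58 to 14.3%) no KO peak of any width was called. The mirror figure was 39 of 349 genes with a wide KO-only peak and no WT peak (11.2%, 8.07 to 14.96%). These genes were short, with a median of 24.7 kb for those with a member and 23.5 kb for those with a wide KO-only peak. Among the 37 were Olfr149, Olfr441, Olfr532, Vmn2r110, Zfp558, Cyp2c40, Cyp2c55 and Serpinb9c, 8 family genes whose only WT peak was the member, save Cyp2c40 with 2 WT peaks.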

How the data were processed

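CUT&Tag for H3K9me2 was done on activated B cells, 1 KO and 1 WT library, grouped by the genotype in the labels. MACS2 2.2.7.1 made a broad peak list from each library on its own, per the file headers, at a q cutoff of 0.01. It kept all duplicates, used no control and no pairing of read ends, and took its local background over 10000 bp. The headers give d as 189 bp in KO and 292 bp in WT and list 293 bp (KO) and 191 bp (WT) among other candidates. Picard, HOMER, deepTools, SAMtools 1.11, Bowtie2 2.4.2, Trim Galore 0.6.6 and mm10 appear, with no role stated, in the submitters' processing notes. Pileup was deposited as a signal, the coverage by tags extended to d, without scaling to the other library. Significance was deposited as −log10 of the p-value and of the q-value. Fold enrichment was deposited as a ratio, pileup over local background. Since d sets the extension, width, pileup, fold and q all depend on it. Peak length was used as deposited.

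Peaks on chromosomes 1 to 19 and X were read with pandas 2.3.3 and numpy 2.4.6, and intervals came from scipy 1.17.1. A member was a WT peak at least 500 bp longer than d, with a pileup below 100 and no KO peak sharing 1 bp. Gene bodies were the RefSeq genes of GRCm38.p6, of which 345 on patch scaffolds were left out. Strand came from the promoter table, exons were not used, and coordinates count from 1. Named genes were those with most members (up to 25), those met by the 10 widest members, those with a member at a gene end (15 widest) and all hit members of the lists. Named regions were the widest, the farthest from and nearest to a KO peak, those at the limits and the largest runs. The 5 printed windows had the largest overlap, and ties were settled by protein-coding genes first, then genes outside multicopy families, then the widest member, an order set after the windows were seen. Members and lists were chosen with earlier results of these data known, so no list is independent support. Overlap, distance and run functions were tested on simulated lists with known answers. Alternatives were other width, pileup and q limits, KO peaks widened by 103 bp, a 1 kb gap to KO peaks, autosomes only and other windows. A few genes that the rule picks are not reported by name or drawn, though the counts include them.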

Additional observations from a re-analysis of the deposited data

Results flagged for a closer look

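Outside chromosomes 1 to 19 and X, on sequences that no comparison used, 4 wide WT-only peaks met the same limits, and so did 5 wide KO-only peaks. They are given here because they are a signal in data that was set aside. These sequences held 199 KO and 188 WT peaks in all, of which 39 KO and 40 WT peaks were wide.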

How the results depend on the processing

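The share outside genes kept to 60.2 to 63.2% under all 9 other settings, and dropping the pileup limit, a pileup limit of 50, widening KO peaks by 103 bp and leaving out X moved none of the 8 results on members beyond its counting interval or, for counts, by 1.5 times. A width limit of 400 bp gave 2604 members and 24.5% with another within 50 kb. A limit of 700 bp gave 582 members in 157 genes, 7.39% with another within 50 kb and a mean of 4.08 KO peaks within 50 kb. With no KO peak within 1 kb allowed, the median distance to a KO peak was 10.9 kb, 17.2% had another within 50 kb and a mean of 3.80 KO peaks lay within 50 kb. At a q of 1e-05 or lower only 19 members in 5 genes were left, with 26.3% in protein-coding genes, 5.26% at gene ends, a median of 8.13 kb to a KO peak, 4.68 KO peaks within 50 kb and 0% with another within 50 kb. With the total width of the smallest wide KO peak, an alternative added after seeing the data, there were 2649 members, 25.1% of them with another within 50 kb. The same total width in both lists left 748 wide KO-only peaks. Within 5 kb of a gene end lay 6.20%. Another member lay within 10 kb of 4.03% and within 100 kb of 31.1%, and a mean of 7.58 KO peaks lay within 100 kb. Of 77 alternative values 54 stayed with the main value and 23 moved; causes were not tested beyond the fewer or wider peaks each setting admits.

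No paired analysis was possible because each genotype had 1 library, and for the same reason no fit without a library was made. Members are weak calls made without a control, and KO coverage beneath them is not known here, since the lists hold called peaks only.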
